A study of Mus musculus with 30 samples.

Results

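The 38 genes described here encode subunits and assembly factors of the proteasome, and were taken as every mouse gene in the count tables with a symbol made of Psma, Psmb, Psmc or Psmd and a number. They are 38 of 48795 genes in the tables, and 1 further gene of that pattern is not analysed here. RNA was sequenced from primary endothelial cells of the brain, which line its blood vessels, from wild-type mice with no treatment at 2, 6, 12, 18 and 24 months of age. There were 6 libraries of every age, with males and females at 3 each, and the study asked which genes change with age by regression after correction for sex. Neither the way the cells were isolated nor whether a library holds 1 mouse or a pool is given in the sources used here, so p-values measure the spread between these libraries.

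The proteasome degrades proteins tagged with ubiquitin. Its 20S core is a barrel of alpha rings, which gate the entry, around beta rings, which carry the catalytic sites of Psmb6, Psmb5 and Psmb7. The 19S cap binds the tagged protein, removes the ubiquitin and threads the protein into the core with a ring of ATPases. Interferon replaces catalytic subunits by inducible ones, of which Psmb9 takes the place of Psmb6 and Psmb10 that of Psmb7. The resulting immunoproteasome supplies peptides for MHC class I, which endothelium presents to T cells.

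The promoters of 4 members on which the results turn are shown with their letter matches to 3 general promoter elements. These members are Psmb9 and its constitutive counterpart Psmb6, and the ATPase genes Psmc1 and Psmc5, which had the smallest adjusted p at 18 months. The windows come from RefSeq on GRCm38.p6, run from 250 bases before to 50 bases after each start, and are written 5′ to 3′ on the strand of the gene. They lie at chr17:34187281-34187580 on the minus strand for Psmb9, and on the plus strand at chr11:70525107-70525406 for Psmb6, chr12:100109952-100110251 for Psmc1 and chr11:106255935-106256234 for Psmc5. The Psmb9 window lies wholly within that gene as GENCODE M21 annotates it (chr17:34181987-34187764), because its start there is further upstream. Capitals mark letter matches to the 3 elements, each searched on both strands and none overlapping another in these windows. Other elements were not searched, and whether a match is in use was not tested. The GC box was searched as GGGCGG. The CCAAT box was searched as its name is spelled. The core of the antioxidant response element was searched as TGACNNNGC.
Psmb9: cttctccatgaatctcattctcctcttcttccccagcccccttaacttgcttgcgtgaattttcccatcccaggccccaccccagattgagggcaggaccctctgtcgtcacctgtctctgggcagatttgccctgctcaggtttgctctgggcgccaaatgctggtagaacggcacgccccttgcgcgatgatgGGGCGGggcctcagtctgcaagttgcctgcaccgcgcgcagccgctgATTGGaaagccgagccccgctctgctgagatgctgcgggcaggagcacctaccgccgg
Psmb6: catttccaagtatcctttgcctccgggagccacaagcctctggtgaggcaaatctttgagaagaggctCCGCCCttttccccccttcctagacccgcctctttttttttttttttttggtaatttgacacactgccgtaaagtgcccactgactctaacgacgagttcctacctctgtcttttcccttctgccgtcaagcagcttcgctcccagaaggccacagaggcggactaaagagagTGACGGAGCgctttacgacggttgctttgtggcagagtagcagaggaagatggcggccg
Psmc1: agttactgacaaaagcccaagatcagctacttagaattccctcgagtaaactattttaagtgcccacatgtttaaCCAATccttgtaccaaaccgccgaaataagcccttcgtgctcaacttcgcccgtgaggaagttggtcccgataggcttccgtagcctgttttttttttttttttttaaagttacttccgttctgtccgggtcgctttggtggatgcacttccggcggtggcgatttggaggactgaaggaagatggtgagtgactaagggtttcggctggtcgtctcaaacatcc
Psmc5: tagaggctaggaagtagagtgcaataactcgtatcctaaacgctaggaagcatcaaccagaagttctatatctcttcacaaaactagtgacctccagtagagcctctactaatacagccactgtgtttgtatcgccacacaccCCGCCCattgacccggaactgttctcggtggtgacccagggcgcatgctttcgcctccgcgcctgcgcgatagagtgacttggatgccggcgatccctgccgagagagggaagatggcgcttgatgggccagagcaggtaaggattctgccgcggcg
A window was found for 31 of the 38 members. GGGCGG occurred in 19 of these 31 members, against 35.7% of all 32851 windows, and CCAAT in 13, against 37.4%. TGACNNNGC, the kind of element that Nfe2l1 and Nfe2l2 bind, occurred in 5 members (Psmb5, Psmb6, Psmc6, Psmd9 and Psmd12), against 12.4% of all windows. The 300-base window of Psmb9 shares 275 bases with that of Tap1, a peptide transporter gene read from the same stretch in the other direction.

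Counts in genes ranged from 24140980 to 50464366 per library. Levels are given in CPM, the counts of a gene relative to its library's total after TMM scaling. The 10 endothelial markers summed to between 21329 and 28476 CPM in every library, led by Slc2a1, Slco1a4 and Cldn5. RNA of other cell types was also present. Choroid plexus markers summed to 156 to 6945 CPM, led by Ttr (mean 1834 CPM, against 3.91 to 28.9 CPM for each other one). Microglial markers summed to 146 to 1095 CPM. T and NK cell markers summed to 0 to 4.08 CPM and 1 of 5 passed the filter, too low to show that these cells were present. None of the 14 marker lists had a marker at 0 in all libraries. For the slope on age 3 of 7 pericyte markers were called higher, as were 1 of 6 neuronal and 1 of 3 tested neutrophil markers, whereas 3 of 5 choroid plexus, 2 of 7 astrocyte and 1 of 10 endothelial markers were called lower. Neuronal markers summed to 109 to 151 CPM at 24 months, against 28.0 to 43.9 CPM at 2 months, with no overlap. That sum was mostly Stmn2, with a mean of 86.3 CPM over all libraries, against 0.221 to 2.05 CPM for each other neuronal marker. Choroid plexus markers summed to 156 to 1432 CPM at 18 months, against 901 to 4242 CPM at 2 months. The part of these cell types in the age differences of the members was not tested. In bulk RNA, fewer cells of a type and less RNA per cell cannot be told apart.

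Libraries differed in make-up in a way that moved with the members, which bears on the results that follow. The share of counts in genes longer than 4302 exonic bases, the median of expressed genes, ranged from 39.6 to 56.1%, and 30 of the 37 tested members are shorter than that. It was lowest in the 3 female 6-month libraries and in male 12-month replicate 1, at 39.6 to 42.6%. In these 4 libraries the median of the 34 constitutive members stood 0.25 to 0.37 log2 units above each member's own mean over all libraries. It was highest at 18 months, where it averaged 52.9 ± 2.44%, against 48.7 ± 1.68% at 2 months (SD, n = 6 each). Reads outside genes also averaged more at 18 months, at 10.4 ± 2.13%, against 5.06 ± 0.971% at 2 months. Female 18-month replicate 2 had the highest share of longer genes, the most reads outside genes (13.1%) and the lowest median of the members, at -0.39. At 24 months the longer-gene share averaged 48.8 ± 1.61%, within 1 SD of the 2-month mean, whereas reads outside genes averaged 7.19 ± 1.76%, more than at 2 months. The labels do not name the 6 libraries that were read as single ends on another instrument, so whether the instrument moved with age or sex is not known.

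**Figure D1:**
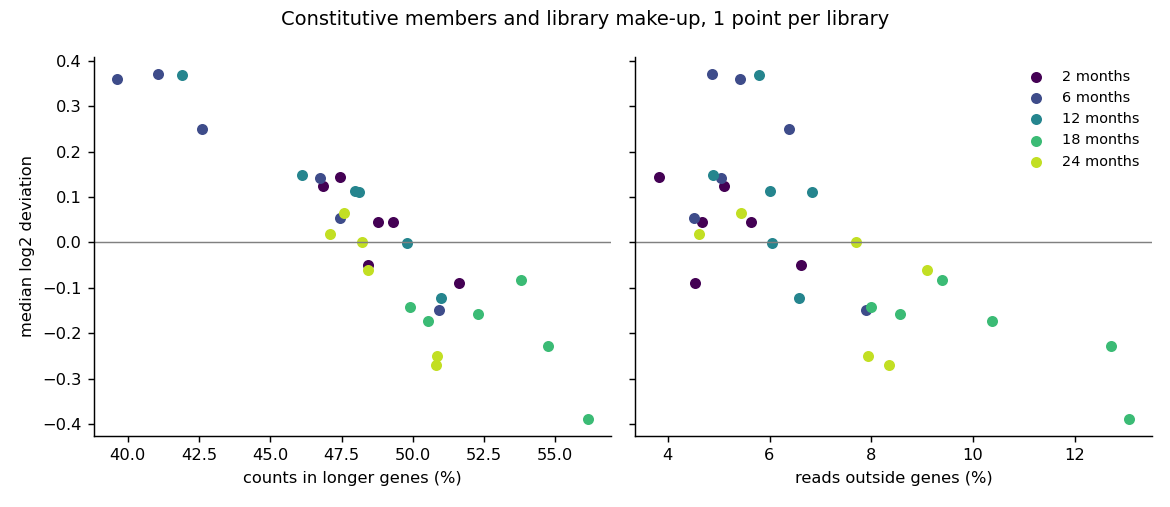
Each point is 1 of 30 libraries. The vertical axis is the median, over the 34 constitutive members, of the log2 level minus the member's own mean over all libraries, and the horizontal axes are the share of counts in longer genes and the share of reads outside genes. The 4 libraries with 39.6 to 42.6% of counts in longer genes stand highest, and the 18-month libraries lie between -0.39 and -0.08.

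The inducible catalytic subunit Psmb9 stood higher at 24 months than at 2 months, both by itself and relative to the subunit it replaces, but its slope over the 5 ages was not called. Psmb9 lies at chr17:34181987-34187764 on the minus strand (GRCm38). From the youngest to the oldest of the 5 ages, its median level was 71.3, 111, 94.5, 89.9 and 114 CPM. The ranges behind these medians were 55.8 to 87.4, 71.7 to 348, 79.6 to 135, 69.3 to 106 and 101 to 175 CPM, in the same order of ages. The 24-month and 2-month libraries did not overlap, whereas those of 18 and 2 months did. Psmb9 was 0.79 ± 0.24 log2 units (SE) higher at 24 months than at 2 months (edgeR's quasi-likelihood test, adjusted p = 0.0378), and it was 1 of 2 members called among 37, with 8.35% of all genes called and 4.86% called higher. The other was Psma8. The call of Psmb9 at 24 months was lost in 10 of 30 fits that left out 1 library, each of them a 2-month or 24-month one: any of the 6 at 2 months, or male replicates 1 and 2 and female replicates 1 and 3 at 24 months. Over all 30 such fits the difference ran from 0.63 to 0.86 log2 units, with adjusted p of up to 0.119. With the longer-gene share as a covariate it was 0.79 (edgeR, adjusted p = 0.0036), and with reads outside genes as a covariate 1.10 (adjusted p = 0.00563). In males alone it was 1.05 (adjusted p = 0.0218), and in females alone 0.52 and not called (adjusted p = 0.309).

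Across the 5 ages in a straight line Psmb9 changed by 0.23 ± 0.27 log2 units over 22 months (edgeR, adjusted p = 0.623), and a departure from that line was called (adjusted p = 0.017). Without 1 library the slope ran from 0.076 to 0.47 and was never called, the lowest without male 24-month replicate 2 and the highest without female 6-month replicate 1. Without the 3 female 6-month libraries it was 0.63 and called (adjusted p = 0.0048), and with the longer-gene share as a covariate 0.72 and called (adjusted p = 0.00929). It was -0.35 in females alone and -0.35 without the 2-month libraries, neither of them called. At 18 months Psmb9 was 0.32 ± 0.24 above 2 months and not called (adjusted p = 0.381).

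The ratio of Psmb9 to Psmb6 within a library does not depend on how libraries are scaled. Differences in library make-up by gene length need not cancel in it, as Psmb9 has 3660 exonic bases and Psmb6 has 1872. The part of library make-up in the ratio was not tested at any age. By age, youngest to oldest, the ratio averaged 0.217 ± 0.0352, 0.379 ± 0.229, 0.266 ± 0.0286, 0.317 ± 0.061 and 0.400 ± 0.0800 (SD, n = 6 each). The 24-month libraries lay between 0.318 and 0.527, and the 2-month libraries between 0.160 and 0.251, so that all 6 of 24 months were above all 6 of 2 months. The ratio was 1.83-fold higher at 24 months, a difference of 0.87 in log2 (exact permutation test, two-sided, p = 0.00216, the smallest that 6 against 6 can give). After adjustment over the 8 comparisons of 2 ratios, the p of this exact test was 0.0173. Males averaged 0.416 at 24 months, against 0.193 at 2 months, and females averaged 0.385 at 24 months, against 0.242 at 2 months. Over the 30 repeats without 1 library the difference at 24 months ran from 0.79 to 0.94 in log2. Its call could not be lost in them. Only libraries of these 2 ages enter the comparison, and the 2 ages do not overlap. The difference was also called with Psmb5 in place of Psmb6 (0.96) and with the mean of Psma1 to Psma7 in its place (0.79).

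At the ages between, the ratio was also above that of 2 months, with less even libraries. Relative to 2 months it was 0.67 higher in log2 at 6 months, 0.30 at 12 months and 0.53 at 18 months (exact permutation tests, adjusted p = 0.026, 0.0346 and 0.0289). At 6 months 1 library, female replicate 1, had a ratio of 0.840 and the other 5 had 0.246 to 0.357, and without it the difference was 0.41 and still called. The call at 6 months was lost without male 2-month replicate 1 or 2 (0.58 and 0.63), and the call at 18 months without male 2-month replicate 1 or 2 or male 18-month replicate 1 (0.45 to 0.50). The call at 12 months was lost in 9 of 30 such repeats (0.22 to 0.32), namely without male 2-month replicate 1, 2 or 3, female 2-month replicate 2, male 12-month replicate 1, 2 or 3, or female 12-month replicate 1 or 3. Regression of the log2 ratio on age with sex gave 0.61 over the 22 months (permutation of ages within sex, adjusted p = 0.0121). Both genes enter this ratio. By itself Psmb6 had a slope of -0.27 ± 0.12 (edgeR, adjusted p = 0.159), and Psmb9 one of 0.23 that was not called. Relative to 2 months Psmb6 changed by 0.19, 0.20, -0.22 and -0.11 in log2 at 6, 12, 18 and 24 months, none of them called.

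For Psmb10, which takes the place of Psmb7, no difference in ratio was called. By age, youngest to oldest, the ratio of Psmb10 to Psmb7 averaged 3.33 ± 0.381, 2.88 ± 0.277, 3.23 ± 0.235, 3.16 ± 0.688 and 3.25 ± 0.205 (SD, n = 6 each). The largest difference in size was -0.21 in log2 at 6 months (exact permutation p = 0.0411, adjusted p = 0.0658), which passed the threshold without female 6-month replicate 1 (-0.25). By itself Psmb10 had a mean of 169 ± 23.8 CPM at 24 months, against 163 ± 15.8 CPM in the 2-month libraries. Whether the 2 ratios differ in their change with age was not tested.

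**Figure D2:**
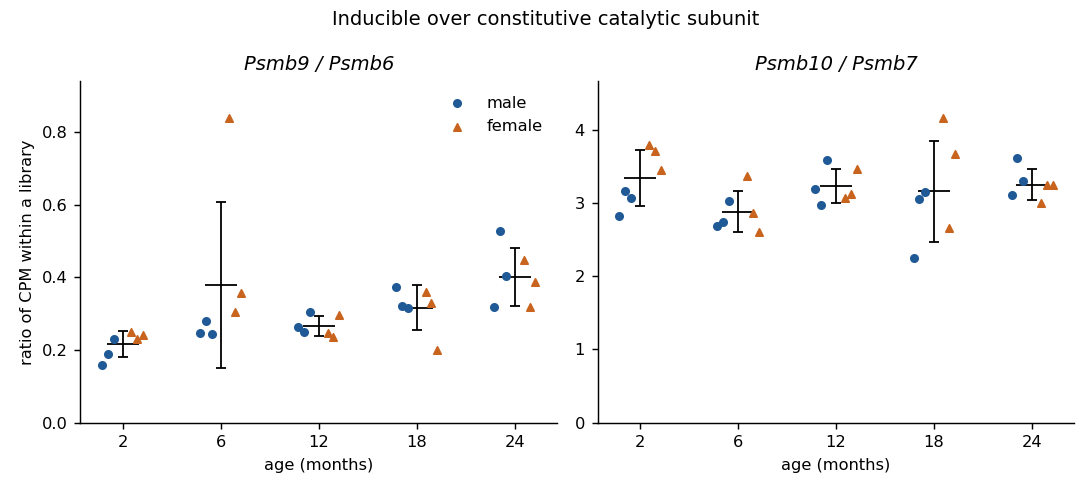
Ratio of the CPM of the inducible to that of the constitutive catalytic subunit in each library, by age in months, with 1 point per library, circles for males and triangles for females. Bars give the mean and SD of the 6 libraries of an age. For Psmb9 over Psmb6 the 24-month libraries (0.318 to 0.527) all lie above the 2-month libraries (0.160 to 0.251), and for Psmb10 over Psmb7 the mean at 24 months, 3.25, is within 1 SD of the mean at 2 months.

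Compared per length of the principal annotated transcript, the constitutive members spanned 18.2 to 418 CPM per kb. Psmb6, the caspase-like catalytic subunit, was the highest at 418 CPM per kb, followed by the alpha ring gene Psma7 at 373 and Psmb2, a beta subunit without catalytic activity, at 302. The other catalytic subunits were lower, at 48.6 CPM per kb for Psmb5 (chymotrypsin-like) and 46.0 for Psmb7 (trypsin-like). The inducible Psmb10 had 128 and Psmb9 had 78.0 CPM per kb. In the 19S base, which carries the ATPases, Psmc3 had 187 CPM per kb and the ubiquitin receptor Psmd4 had 162. In the lid, the part that removes ubiquitin chains, Psmd7 had 126, and the highest of the 3 assembly chaperones, Psmd5, had 34.2. Psma8, the alpha subunit of the testis form, had 11.6 CPM per kb. Psmb11, the catalytic subunit of the thymus form, had 2 counts over all 30 libraries, under the limit of 3 counts that a count of 0 allows in a library (0.0594 to 0.124 CPM, which covers counting error only), and was not tested.

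Relative to 2 months, the core genes stood higher at 6 months and the members as a whole lower at 18 months. At 6 months the median change of the 37 tested members was 0.18 in log2, with 30 of 37 above 0, and that of all 16844 genes was -0.02. The 7 alpha ring genes (median 0.28) and the 7 constitutive beta ring genes (median 0.28) were all above 0, whereas the 6 ATPase genes had a median of 0.05. There were 4 members called by edgeR's quasi-likelihood test at an adjusted p under 0.05, against 8.76% of all genes. Psmb9 (1.02 ± 0.24, adjusted p = 0.01), Psmb7 (0.54 ± 0.15, adjusted p = 0.0211) and the alpha ring gene Psma3 (0.41 ± 0.11, adjusted p = 0.0178) rose, and Psmd2, the scaffold that receives ubiquitin-carrying factors, fell (-0.45 ± 0.12, adjusted p = 0.0231).

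The calls at 6 months rested on the female libraries. Psmb7 had a lowest, median and highest value of 44.2, 71.0 and 96.7 CPM at 6 months, against 45.2, 49.9 and 51.5 CPM at 2 months. Without the 3 female 6-month libraries, which have few counts in longer genes, the changes were 0.27 for Psmb9, 0.06 for Psmb7, 0.17 for Psma3 and -0.21 for Psmd2, and 0 members were called by edgeR. With the longer-gene share as a covariate 0 members were called and the median was -0.05. In females alone 18 members were called and in males alone 0, with 3754 calls over all genes in females and 81 in males, and the difference between the sexes at this age was not tested. Single libraries also decided calls: Psma3 lost its call without female 2-month replicate 1 (0.37), Psmb7 without female 6-month replicate 1 or 3 (0.46 and 0.49), and Psmd2 without female 2-month replicate 2 or 3 or any female 6-month library (-0.43 to -0.34). Psmb9 kept its call in all 30 such fits, although its difference was 0.62 without female 6-month replicate 1.

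At 12 months no member was called by edgeR, against 2.94% of all genes, and 0 were called by DESeq2. An unadjusted p under 0.05 was found for 6 of 37 members, against 2767 of all 16844 genes. The median change of the members was 0.08. Psma7 had its highest mean at this age, with 324, 396 and 487 CPM as its lowest, median and highest value, against 307, 326 and 364 CPM at 2 months.

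At 18 months 34 of the 37 tested members were below their 2-month level, with a median of -0.23, against -0.0026 over all genes. There were 9 members called, all of them lower, against 8.7% of all genes called lower and 18.8% called in either direction. They were the catalytic subunit Psmb5 (-0.63 ± 0.16, adjusted p = 0.00654), the ATPases Psmc1, Psmc2, Psmc4 and Psmc5, the ubiquitin receptor Psmd4, and the lid genes Psmd3, Psmd8 and Psmd13. Psmc1 was at -0.41 ± 0.09 (adjusted p = 0.00239) and Psmc5 at -0.40 ± 0.09 (adjusted p = 0.00153). With no scaling factor 6 members were called at this age, 4 lower and 2 higher.

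Psmc1 had 166, 181 and 217 CPM as its lowest, median and highest value at 18 months, against 223, 254 and 265 CPM at 2 months, so the ages did not overlap. Psmc5 had 153, 169 and 202 CPM at 18 months, against 202, 220 and 248 CPM at 2 months, and female 18-month replicate 3 alone came near the 2-month range. Psmb5 had 23.9, 24.9 and 41.2 CPM at 18 months, against 40.9, 44.5 and 47.7 CPM at 2 months. For Psmb5 the 3 female libraries of 18 months were the lowest of all ages, and 1 male 18-month library reached the range of 2 months. Psma3 stood apart among the alpha ring genes, with a change of 0.30 ± 0.11 at 18 months that did not pass the test (adjusted p = 0.0531).

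**Figure D3:**
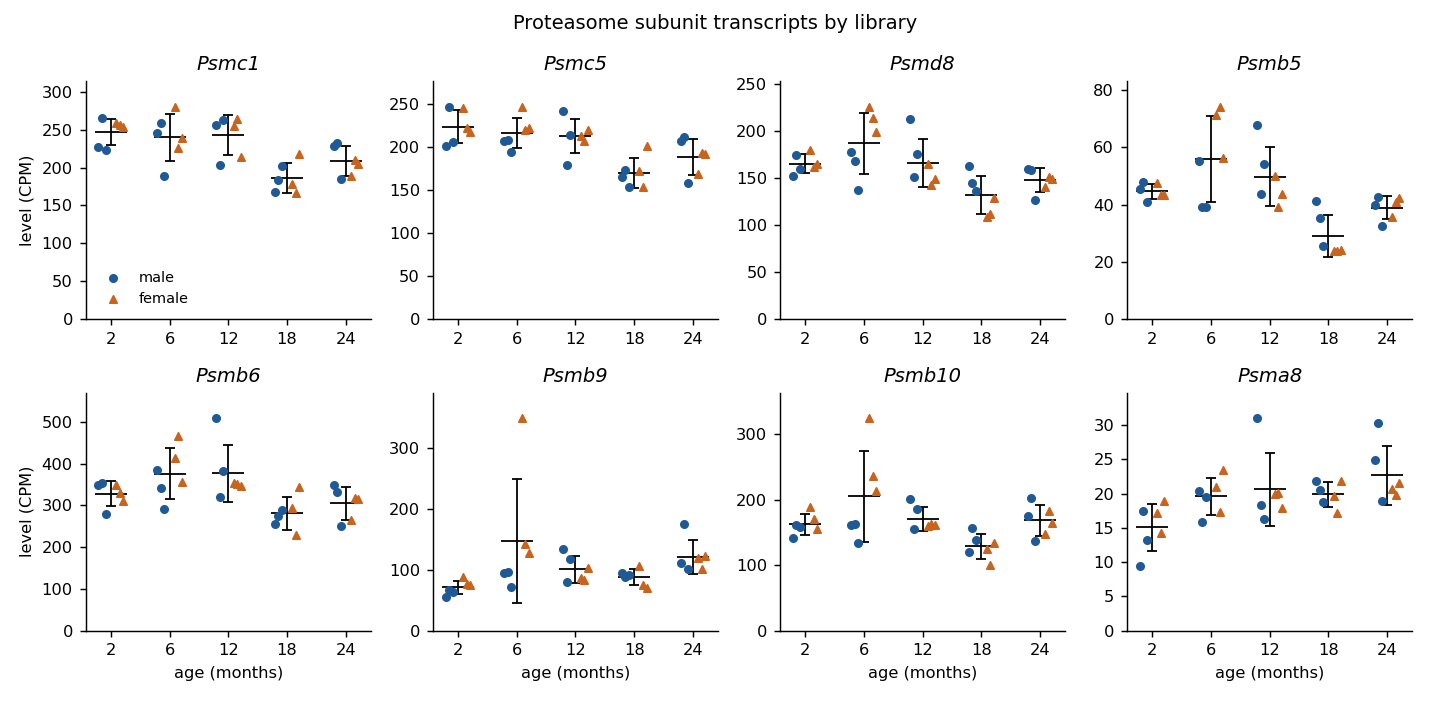
Level in CPM of 8 members in each library by age in months, with circles for males, triangles for females, and bars for the mean and SD of the 6 libraries of an age. Psmc1, Psmc5, Psmd8 and Psmb5 have their lowest means at 18 months, whereas Psmb9 and Psma8 have their lowest means at 2 months.

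These 18-month differences moved with the make-up of the libraries. With reads outside genes as a covariate 0 members were called and the median was 0.13, with Psmc1 at -0.0069 and Psmc5 at -0.09; over all genes the calls dropped to 214 in that fit, against 3163 without the covariate. With the longer-gene share as a covariate 8 members were called by edgeR, 3 higher and 5 lower, and the median was -0.04. Psmc5 was then at -0.27 (adjusted p = 0.0141) and Psmb5 at -0.29 (adjusted p = 0.0346). Age and reads outside genes overlap so far at 18 months (7.99 to 13.1% there, against 3.82 to 6.61% at 2 months) that their parts in these differences cannot be told apart. Without 1 library at a time Psmb5, Psmc1 and Psmc5 kept their calls in all 30 fits. Psmd3 lost its call only without female 2-month replicate 3 (-0.27), Psmd4 in 5 fits (-0.28 to -0.24; male 2-month replicate 2, female 2-month replicates 1 and 3, male 18-month replicate 1, female 18-month replicate 2), Psmc4 in 9, Psmd8 in 11 and Psmc2 in 13. In females alone 17 members were called at 18 months, all lower, and in males alone 0; over all genes the calls were 3367 in females and 275 in males.

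At 24 months the members lay nearer to their 2-month levels. The median change was -0.11, with 29 of 37 below 0, against 0.01 over all genes. The 34 constitutive members had 0 calls by edgeR, against 8.35% of all genes. An unadjusted p under 0.05 was found for 7 of these 34, against 3573 of all 16844 genes. The ATPase genes had a median of -0.19 and the alpha ring genes of -0.07. Psmb5 had 32.5, 40.3 and 42.8 CPM as its lowest, median and highest value at 24 months, against 40.9, 44.5 and 47.7 CPM at 2 months, and its change of -0.20 ± 0.16 did not pass the test (adjusted p = 0.522).

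**Figure D4:**
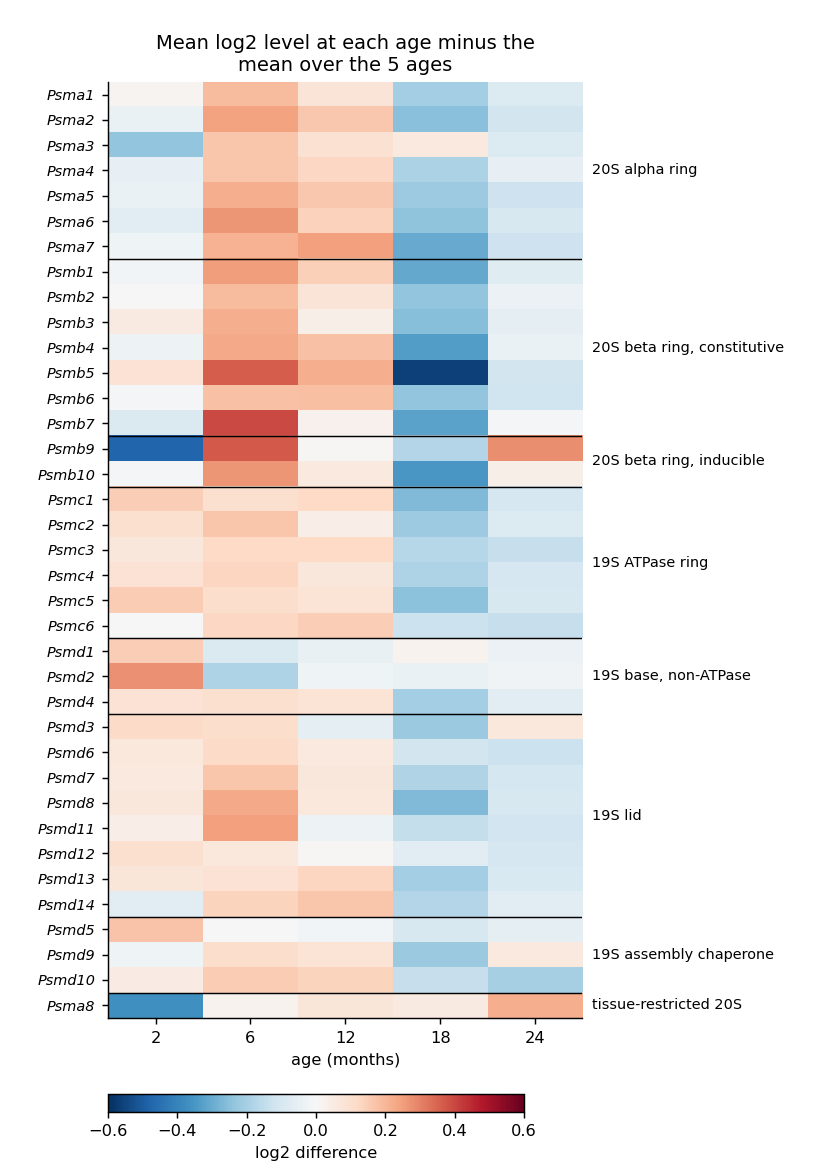
Mean log2 level of each tested member at each age minus its mean over the 5 ages, by role, from blue (lower) to red (higher), with colours limited to 0.6 log2 units. Most constitutive genes are red at 6 months and blue at 18 months, and Psmb9 and Psma8 are bluest at 2 months.

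The study's own question, a straight line in age with sex as a covariate, gave slopes below 0 for most members, and the 8 that passed as lower belong to the 19S cap or its assembly. The median slope of the 37 tested members, as the change over 22 months, was -0.25 in log2, with 34 of 37 below 0, and that of all genes was 0.03. There were 9 members called by edgeR, against 10.9% of all genes, of which 8 fell, against 5.22% of all genes called lower, and 1, Psma8, rose, against 5.72% called higher. The 8 were 4 of 6 ATPases (Psmc1, Psmc3, Psmc4 and Psmc5), 3 of 8 lid genes (Psmd6, Psmd7 and Psmd8) and 1 of 3 assembly chaperones (Psmd10, also called gankyrin). No alpha ring gene and no beta ring gene was called. Among the constitutive ones 4 of 7 in each had an unadjusted p under 0.05, against 4348 of all 16844 genes. Slopes of the core were of like size, with a median of -0.26 for the alpha ring and -0.28 for the constitutive beta ring, and -0.29 for the ATPases, -0.25 for the lid, -0.16 for the other base genes and -0.20 for the assembly chaperones. Whether core and cap differ in slope was not tested.

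Slopes of the called cap genes ran from -0.34 for Psmd8 to -0.25 for Psmd6. Psmc5, the ATPase with the smallest adjusted p, had -0.32 ± 0.08 (adjusted p = 0.0119) and Psmc1 had -0.33 ± 0.09 (adjusted p = 0.0192). Psmc1 averaged 247 ± 17.6, 240 ± 31.1, 243 ± 26.4, 186 ± 20.0 and 208 ± 19.9 CPM over the 5 ages in order (SD, n = 6 each), so the first 3 ages lay together and the last 2 below them. Psmb5 had the steepest slope, -0.54 ± 0.19, with an adjusted p of 0.0549.

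Most of the slope calls sat close to the threshold. In the fits without 1 library the calls of Psmc1 and Psmc5 held in all 30, those of Psmc4, Psmd7 and Psmd6 were lost in 12, 14 and 15, and those of Psmc3, Psmd10, Psma8 and Psmd8 in 19, 20, 23 and 24, with no slope of these changing sign. With reads outside genes as a covariate, or without the 18-month libraries, 0 members were called; over all genes these fits called 402 and 726, against 1843. With the longer-gene share as a covariate 3 members were called, 2 higher and 1 lower, and without the female 6-month libraries 4 were, 2 higher and 2 lower. DESeq2 called 15 members, 14 lower and 1 higher; relative log expression scaling gave 10, all lower, upper-quartile scaling 3, all lower, and no scaling factor 3, 2 lower and 1 higher. A departure from a straight line was called for 13 members, against 17.7% of all genes: 5 of 7 alpha ring genes, 4 of 7 constitutive beta ring genes, both inducible subunits and 2 lid genes (Psmd3 and Psmd14), and none of the 6 ATPases. With the longer-gene share as a covariate 1 departure was called.

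**Figure D5:**
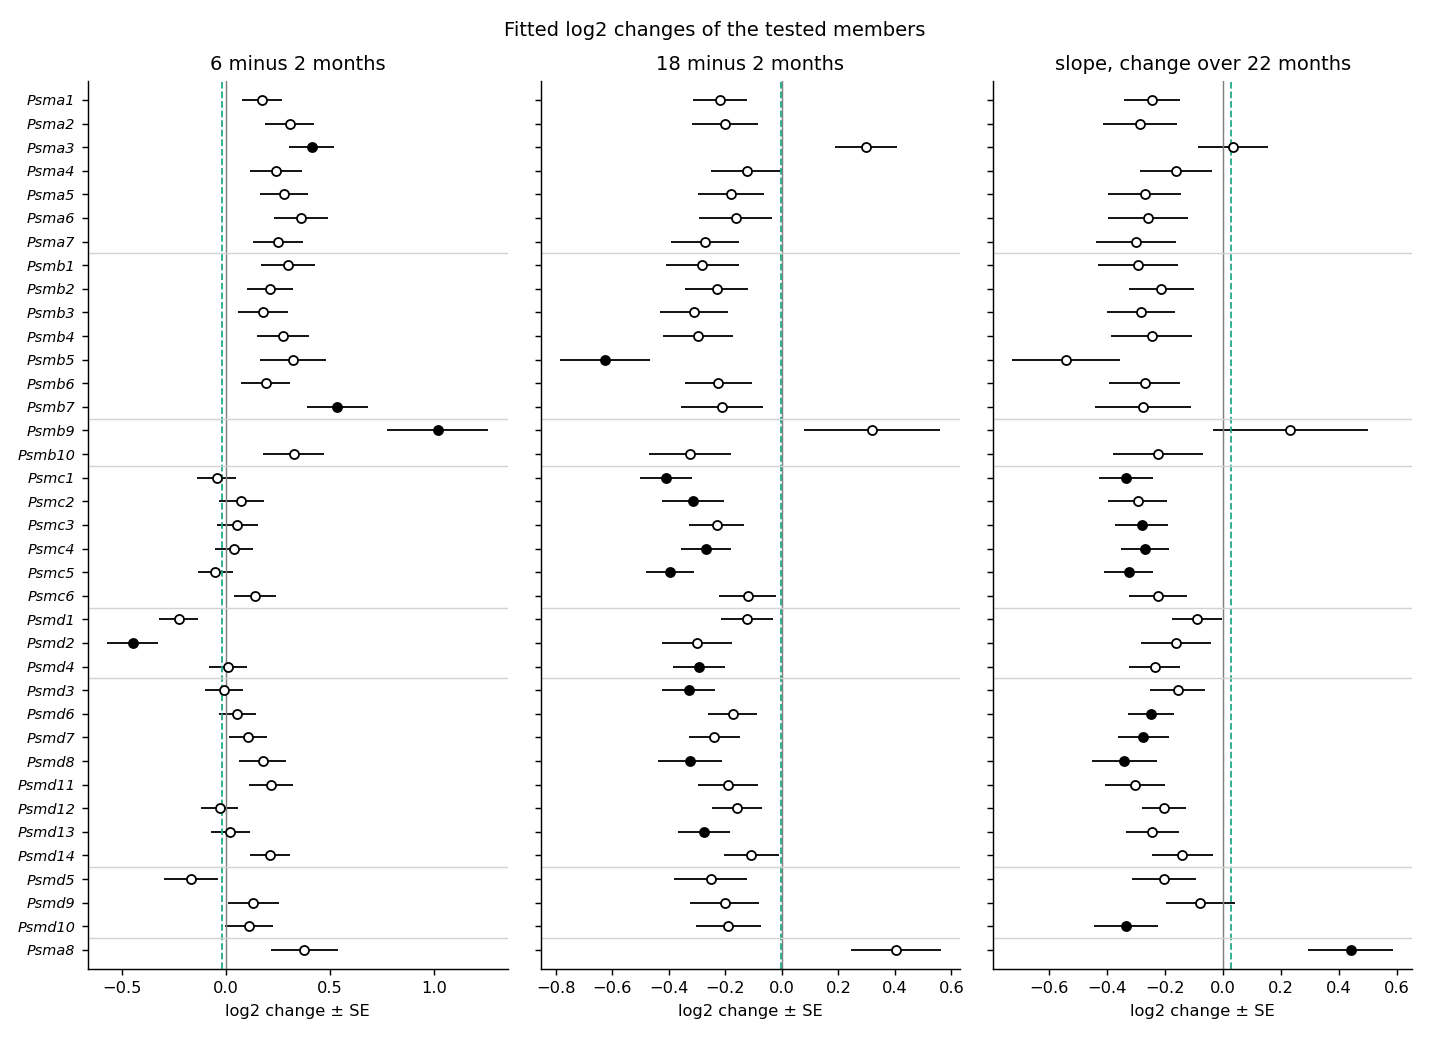
Fitted log2 change ± SE of each tested member at 6 minus 2 months, at 18 minus 2 months, and as the slope over 22 months; filled points have an adjusted p under 0.05 by edgeR, and the dashed line is the median of all genes tested. Core genes (upper blocks) lie right of 0 at 6 months, and 34 of 37 members lie left of 0 both at 18 months and for the slope.

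Psma8, the alpha subunit that replaces Psma7 in the testis, was the one member called higher for the slope (0.44 ± 0.15, edgeR, adjusted p = 0.0484). Over the 5 ages in order its median was 15.7, 19.9, 19.2, 20.0 and 21.1 CPM, with ranges of 9.44 to 18.9, 15.9 to 23.5, 16.3 to 31.0, 17.1 to 21.8 and 18.9 to 30.3 CPM. The 2-month libraries held the lowest values, and the ranges of 24 and 2 months met at 18.9 CPM. At 24 months Psma8 was 0.59 ± 0.16 higher than at 2 months (adjusted p = 0.0188), a call that, among fits without 1 library, was lost only without male 24-month replicate 2 (0.49). It was not called in males alone (0.89) or in females alone (0.30). Without the 2-month libraries the slope was 0.17 and not called.

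No difference between the sexes was called. No member passed for male minus female, against 0.101% of all genes, and DESeq2 called 0. An unadjusted p under 0.05 was found for 2 of 37 members, against 1316 of all 16844 genes. No member passed for sex by age, against 0% of all genes, and 0 were called by DESeq2. Here 4 members had an unadjusted p under 0.05, against 916 of all 16844 genes. For sex by age 36 of 37 members were above 0 with a median of 0.29, the male slope being the higher. Over all genes 8135 of 16844 were above 0, with a median of -0.02. The members move together across libraries, so 36 of 37 does not count independent results. With the longer-gene share as a covariate the median of the members was 0.03.

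The genes whose age means were most like the mean profile of the 34 constitutive members, by the mean absolute difference over the 5 ages, were Gm6055 (0.0080 log2 units), Arl2bp (0.0109), Nudc-ps1 (0.0117), Rexo2 (0.0124) and Rer1 (0.0140). That mean profile, in log2 around its own mean, was 0.04, 0.15, 0.09, -0.20 and -0.08 over the 5 ages in order.

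There were 46 other genes of proteasome assembly, regulation and ubiquitin supply, all of them tested. For the slope 4 passed, all of them higher, against 10.9% of all genes called and 5.72% called higher. They were Psme4, which encodes the activator PA200, Ecpas, which binds the proteasome as an adaptor, Bach1, a repressor at antioxidant response elements, and Nlrc5, which switches on MHC class I genes. All 4 count among the longer genes, with 8382, 11447, 6179 and 8493 exonic bases in that order. Psme4, Ecpas and Nlrc5 had their highest mean at 18 months, where the longer-gene share was highest. A departure from a straight line was called for Psme4, Ecpas and Bach1 (edgeR, adjusted p = 0.0113, 0.022 and 3.62e-07). Nlrc5 had no such call (adjusted p = 0.177). The part of library make-up in these slopes was not tested. At 6 months 4 of the 46 were called higher and 3 lower (8.76% of all genes called), and at 18 months 6 higher and 4 lower (18.8%). At 24 months 3 were called higher and 0 lower (8.35% of all genes called, 4.86% called higher). The slope and 24-month counts were no larger a share of the 46 than the calls in either direction over all genes. They were a larger share than the calls of higher genes alone, a difference that was not tested.

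Psmb9 is a known target of Nlrc5. Over the 5 ages in order the median of Nlrc5 was 7.36, 6.42, 8.74, 16.5 and 15.7 CPM, with ranges of 3.15 to 9.03, 3.00 to 24.7, 5.43 to 11.6, 10.3 to 41.3 and 10.1 to 26.7 CPM. The 18-month and 24-month libraries were all above all 2-month libraries. Its change was 1.62 ± 0.36 at 18 months (adjusted p = 0.00215) and 1.26 ± 0.36 at 24 months (adjusted p = 0.0246), whereas Psmb9 was not called at 18 months. Nlrc5 has 8493 exonic bases and counts among the longer genes. Their share averaged 52.9% at 18 months and 48.8% at 24 months, against 48.7% at 2 months. The part of library make-up in the changes of Nlrc5 was not tested.

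Nfe2l1, the factor that raises proteasome subunit transcription when degradation is blocked, fell at 6 months (-0.77 ± 0.16, edgeR, adjusted p = 0.00294). With 5441 exonic bases it counts among the longer genes, whose share was lowest in the female libraries of that age. At 24 months its change was -0.47 ± 0.15 and not called (adjusted p = 0.0564, edgeR). The part of library make-up in these changes was not tested. The mean of Nfe2l1 over the 5 ages in order was 235 ± 31.2, 138 ± 32.7, 202 ± 36.9, 243 ± 54.0 and 170 ± 22.3 CPM (SD, n = 6 each). Bach1 had 26.3 to 34.1 CPM at 24 months, against 8.39 to 12.0 CPM at 2 months, a change of 1.61 ± 0.19 (edgeR, adjusted p = 8.01e-07). It did not rise steadily with age. Its mean over the 5 ages in order was 9.72, 25.0, 8.10, 21.9 and 29.6 CPM. At 6 months Bach1 was 1.32 ± 0.19 above 2 months (edgeR, adjusted p = 3.32e-05). A departure from a straight line was called for it (adjusted p = 3.62e-07). With 6179 exonic bases Bach1 also counts among the longer genes, and the part of library make-up in its changes was not tested. Akirin2, which brings proteasomes into the nucleus, fell at 18 months (-0.39 ± 0.09, adjusted p = 0.0029), and the longer gene Psme4 (8382 exonic bases) rose (0.61 ± 0.14, adjusted p = 0.00207). The part of library make-up in these 18-month changes was not tested either. The core assembly factors Pomp and Psmg1 to Psmg4 had no slope call, and 1 of these 5, Psmg4, was called at 6 months (0.69 ± 0.20, adjusted p = 0.0294).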

How the data were processed

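RNA was made into cDNA with SMART-Seq v4 and into libraries with Nextera XT, per the labels' protocols, which keep neither strand nor molecular identifiers, so PCR copies are counted. Paired ends were read for 24 of the 30 libraries, and single ends, on another instrument, for 6 that the labels do not name; if these share an age or sex, instrument and group cannot be told apart. The submitters' processing notes name STAR 2.5.2b, HTSeq and FastQC 0.11.4 and the builds GRCm38 and mm10. The authors deposited whole-number read counts per gene, not normalized, and the column that ignores strand was used. Lines without a gene were set aside: 2.51 to 6.26% unmapped, 8.64 to 13.3% at several places, 3.82 to 13.1% outside genes and 3.61 to 4.21% over several genes. Reads over bases shared by 2 genes count for neither, as where Psmb9 overlaps Tap1 (212 exonic bases) and Psmb7 overlaps Nek6 (405), and without strand reads of overlapping genes cannot be told apart. Gene symbols and exon lengths came from GENCODE M21, and 48435 of 48795 identifiers matched.

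The genes were the symbols made of Psma, Psmb, Psmc or Psmd and a number. The members, lists and tests were chosen with earlier results of these data known. Counts were fitted with edgeR 4.0.16 in R 4.3.3 (filterByExpr by age, minimum count 10; TMM; robust quasi-likelihood), in all 30 libraries, with Benjamini-Hochberg adjustment over 16844 genes. The slope was fitted with sex as covariate, the ages against 2 months with age as a factor and sex. Curvature was tested with the 3 remaining degrees of freedom of age. The 4 age comparisons share the 2-month libraries. SEs were derived from the F statistic. Ratios used log2 CPM and exact permutation tests in SciPy 1.17.1; regressions of ratios used 100000 permutations. The fits were tested on simulated counts. Named with values were members called for the slope, the catalytic and inducible subunits, the member of each role with the highest level per length and the largest slope, and up to 6 members called at 18 and at 24 months. Psma3, Psmd2, Psmd13, Psmd14 and Psmb2 were named after their values were seen, as were the genes named from the 6 lists of other pathway genes. Alternatives were other scalings and filters, DESeq2 1.42.0, 2 library measures as covariates, other partner genes, and leaving out libraries.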

Additional observations from a re-analysis of the deposited data

Results flagged for a closer look

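Among 105 groups of 6 libraries tested (19 tested named members and 2 ratios at 5 ages), 8 had 1 library set apart from the other 5 by more than the critical value of Dixon's test allows, and chance sets apart about 1 in 20 groups. Psmb9 reached 348 CPM in female 6-month replicate 1, where the other 5 libraries of that age lay between 71.7 and 142 CPM, and its ratio to Psmb6 was 0.840 there. In that library Psmb10 (325 CPM, against 134 to 236 in the other 5), Psme1 (271, against 116 to 249), Psme2 (137, against 66.1 to 109), Irf1 (361, against 229 to 261) and Nlrc5 (24.7, against 3.00 to 9.89) were also the highest of their age. Microglial markers summed to 155 CPM in it, the lowest of its age, and T and NK cell markers to 0.213 CPM, within the range of the other 5 (0 to 2.83).

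Psmb9 also stood apart in male 24-month replicate 2, at 175 CPM, against 101 to 122 CPM in the other 5. In that library Psmb10 (203 CPM, against 138 to 183 in the other 5), Psme1 (183, against 123 to 148) and Psme2 (86.4, against 55.7 to 82.0) were also the highest of their age, whereas Irf1 (232, against 204 to 276) and Nlrc5 (18.4, against 10.1 to 26.7) were not. T and NK cell markers summed to 4.08 CPM, against 0.633 to 1.97, and border macrophage markers to 6.47 CPM, against 3.37 to 5.97. The part of these cells in the Psmb9 level was not tested. Without this library the remaining 24-month ratios of Psmb9 to Psmb6 still lay above all 2-month ratios. Male 12-month replicate 1, one of the 4 libraries with few counts in longer genes, had the highest Psmb6 (509 CPM), Psmb7 (63.2 CPM) and Psma8 (31.0 CPM) of its age. Female 18-month replicate 3 had the highest Psmc4 of its age (270 CPM) and the lowest ratio of Psmb9 to Psmb6 (0.201).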

How the results depend on the processing

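Calls among the members depended on the processing, and so did directions. The median change of the members at 6 months turned below 0 with the longer-gene share as covariate. At 18 months it turned above 0 with reads outside genes as covariate. The slope on age called 9 members, and 3 with upper-quartile scaling, 3 with no scaling factor, 2 with no filter on low counts, 15 with DESeq2, 0 with reads outside genes and 3 with the longer-gene share as covariate, 0 without the 18-month libraries, 4 without the female 6-month libraries, 0 in males alone and 1 in females alone. At 6 months the 4 calls became 7 with reads outside genes and 0 with the longer-gene share as covariate, 0 without the female 6-month libraries, 0 without the 4 libraries of lowest longer-gene share, 0 in males alone and 18 in females alone. At 12 months the 0 calls became 1 with either covariate and 1 without the female 6-month libraries. At 18 months the 9 calls became 5 with upper-quartile scaling, 4 with no filter, 0 with reads outside genes as covariate, 16 without the female 6-month libraries, 18 without the 4 libraries, 0 in males alone and 17 in females alone. At 24 months the 2 calls became 1 with no filter, 5 (2 higher and 3 lower) with the longer-gene share, 1 without the 18-month libraries, 1 in males alone, and in females alone 2 others, both lower, with Psmb9 and Psma8 no longer called. The 13 departures from a straight line became 2 and 1 with reads outside genes and the longer-gene share as covariate, 2 without the 18-month libraries, 6 without the female 6-month libraries, 3 without the 4 libraries, 0 in males alone and 20 in females alone. These counts stand without the calls over all genes in the same fit. Where the calls over all genes were given further above, they rose and fell together with the calls of members. The counts therefore do not show that the members depend on the processing more than other genes do. The cause of these changes was not tested, and fits in 1 sex or without an age have fewer libraries. Exclusions other than those for the slope, and that of the 4 libraries, were chosen after seeing the data.

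Without 1 library at a time the counts of calls ran from 2 to 11 (slope), 2 to 10 (6 months), 3 to 12 (18 months), 1 to 2 (24 months) and 6 to 19 (departure), and stayed at 0 for 12 months and both tests of sex. The log2 ratio of Psmb9 to Psmb6 ran from 0.41 to 0.76, 0.22 to 0.35, 0.45 to 0.66 and 0.79 to 0.94 at 6, 12, 18 and 24 against 2 months, and that of Psmb10 to Psmb7 from -0.25 to -0.17, -0.085 to -0.00051, -0.19 to -0.0077 and -0.077 to 0.0081.

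Among the named members, in the comparisons followed for each, signs turned in 13 cases. With reads outside genes as covariate the slopes were 0.040 for Psmb7, 0.18 for Psmb10 and 0.056 for Psmd3, and the changes at 18 months 0.13 for Psmc2, 0.032 for Psmc4, 0.055 for Psmd4 and 0.11 for Psmd8. With the longer-gene share as covariate the slopes were 0.033 for Psmb7 and 0.044 for Psmb10, in males alone 0.079 for Psmb10 and 0.044 for Psmd3, and for Psmb9 -0.35 without the 2-month libraries and -0.35 in females alone. Over the mean of Psma1 to Psma7 the Psmb9 difference at 12 months was 0.28 and no longer called. For Psmb10, none of whose differences from 2 months was called, the difference was 0.0013, 0.32 and 0.25 over Psmb5 at 6, 18 and 24 months, and over the alpha mean 0.0073 at 6 months, -0.21 and now called at 18 months and 0.080 at 24 months; regression on age gave 0.030. Psmb11, with 2 counts in all, was not tested. No paired analysis was possible because replicates were numbered in accession order and the numbers pair nothing across ages.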
